A study of Aloe vera with 7 samples.

Results

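The genes described here are 38 members of the plant cell wall loosening and endoglucanase families, measured in root and leaf RNA of Aloe vera, a succulent monocot. They are the probe sets that carry 1 gene in the array's annotation and whose symbol begins with EXPA, EXPB, EXLA, EXLB, XTH or GH9 followed by a number, out of 11100 single-gene probe sets and 18810 probe sets in all. The 38 comprise 10 alpha-expansins (EXPA), 4 beta-expansins (EXPB), 4 expansin-like genes (EXLA and EXLB), 7 xyloglucan endotransglucosylase/hydrolases (XTH) and 13 glycosyl hydrolase family 9 endoglucanases (GH9). A further 4 probe sets of these families carry several genes in the annotation and were not used.

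The series comprised 7 Affymetrix ATH1 arrays: 3 of root RNA, 3 of leaf RNA and 1 of genomic DNA, whose column held 0 values. The labels describe 1 mature garden-centre plant kept in the laboratory at room temperature, without an age, a cultivar or a treatment. Nothing in them says that replicates are separate plants, and p-values then cover only the spread between these samples, possibly technical. The array targets Arabidopsis thaliana, so a value measures the binding of Aloe RNA to probes for an Arabidopsis gene, and probes for close relatives in a family may bind the same Aloe RNA. The deposited values are on a log2 scale on which the median of each gene's 6 RNA arrays is 0. They therefore give differences between arrays, not signal levels, and genes cannot be ranked by abundance. Background was not given either, and a value near 0 therefore does not show equal RNA in both tissues.

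Growing plant cells enlarge by letting their walls yield to turgor. Expansins loosen the wall without cutting it, by easing the contacts between cellulose and the polymers around it, and act best at acid pH. XTH enzymes cut xyloglucan chains and join the cut end to another chain or to water. GH9 endoglucanases cleave glucan chains of the cellulose type; class A includes the membrane-bound KORRIGAN proteins of cellulose synthesis, class B enzymes are secreted, and class C enzymes carry an extra cellulose-binding module. In Arabidopsis, single members of each family mark particular growing cells, among them elongating root cells and root hairs.

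The tissue labels were checked against the chloroplast-encoded photosystem II genes, which mark green tissue. All 12 measured psb genes had the lower mean in root (median of root minus leaf, -2.49 log2), and 5 of them passed the test used below. With a block for the replicate number 4 passed, psbB being lost (adjusted p = 0.0508). Their mean value ranged from -1.31 to -0.71 log2 over the root arrays and from 0.54 to 1.61 log2 over the leaf arrays, with leaf replicate 2 the lowest leaf array. Other cell type markers were hardly matched by name. Of the 10 root hair markers only EXPA7 and EXPA18 were matched, both members here. Of the 4 guard cell markers only AT1G22690 was (0.11 ± 0.21 log2, SE), of the 4 pollen markers only EXPB1, and of the 6 xylem markers 0.

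The comparison of root with leaf asked which wall loosening genes bound the RNA of the tissues unequally. GH9C2, a class C endoglucanase gene, stood apart from the other 37 members: its value was 2.87-fold lower in root, and its adjusted p of 0.0533 lay just above the threshold of 0.05, so it was not called. In samples of whole tissue, fewer cells of a type and less RNA per cell cannot be told apart. It was the only member (2.63%) that differed by more than 2-fold, as did 3.50% of all probe sets. XTH21 and GH9B16 also had lower values in all root arrays than in any leaf array, by 1.54-fold and 1.46-fold, and did not pass. XTH18 had the highest root minus leaf difference, 0.96 ± 0.44 log2 (SE, n = 3 arrays per tissue), and did not pass either. In each family the matched members, which are not the whole family, lay on both sides of 0. Family medians ran from -0.21 log2 in the beta-expansins to 0.090 log2 in the expansin-like genes. The beta-expansin median, of only 4 genes, lay below the 25th percentile of all probe sets (-0.19 log2).

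Differences came from limma, fitted over all 18810 probe sets, with calls made where the Benjamini-Hochberg adjusted p was under 0.05. Of the 38 members 0 were called, against 64 of 18810 probe sets (0.340%). At an unadjusted p under 0.05 there were 3 members (7.89%), GH9C2, XTH21 and GH9B16, all lower in root, against 9.56% of all probe sets, or 4.88% counting only those lower in root. Root and leaf arrays did not overlap in 4 members (10.5%), those 3 and EXPA20, again all lower in root, against 15.1% of all probe sets, or 6.87% counting only those lower in root. Counted in both directions these shares were below the background. On the side lower in root alone they were above it, but they rest on only 3 and 4 members and the excess was not tested. The median root minus leaf difference was 0.0084 log2 over the members and 0.034 log2 over all probe sets, and 20 members (52.6%) had the higher mean in root and 18 in leaf, against 54.5% of all probe sets higher in root. Only 2 members, GH9C2 and EXPB2, lay below the 5th percentile of all probe sets (-0.69 log2), and only XTH18 lay above the 95th percentile (0.65 log2). The standard error of a member's difference ranged from 0.19 to 0.67 log2 over these 6 arrays.

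**Figure D1:**
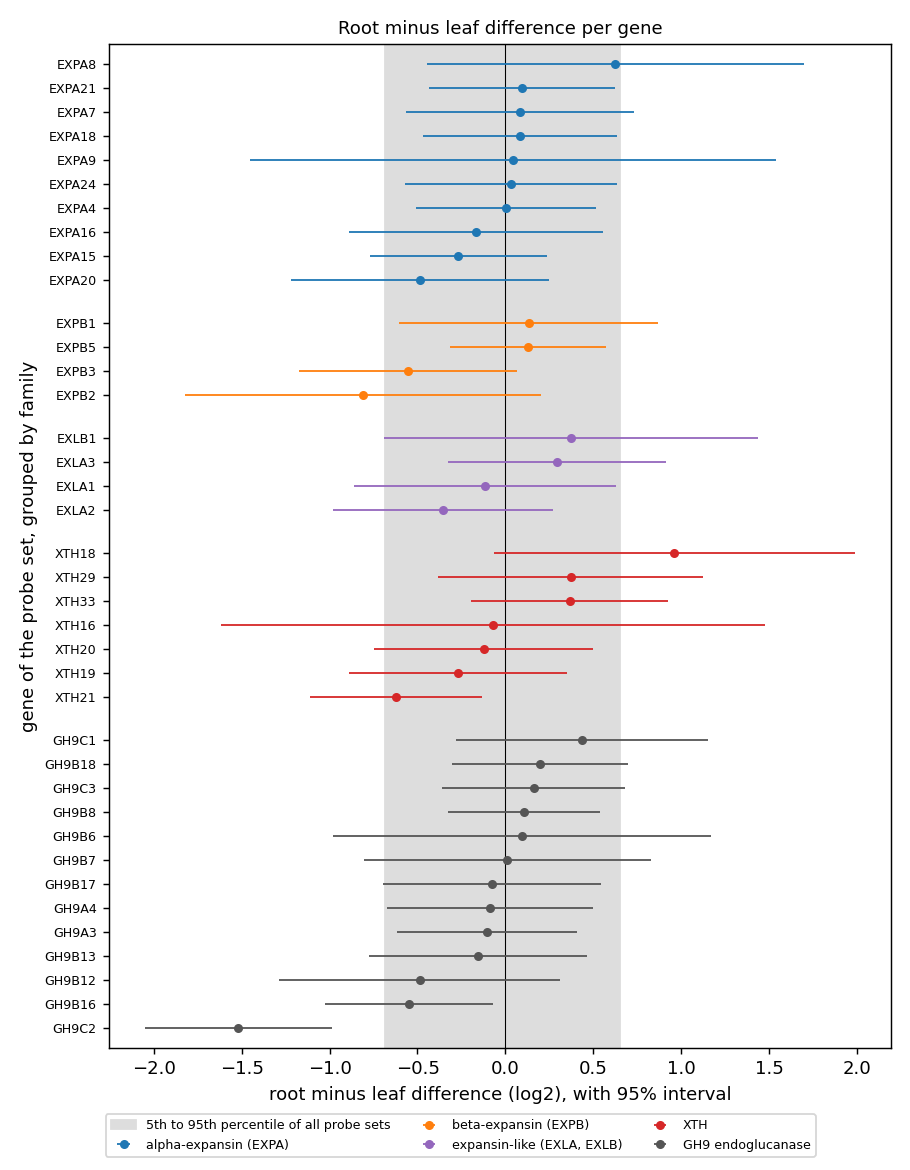
Root minus leaf difference in log2 (horizontal axis) of each of the 38 genes, grouped by family, with 95% intervals from limma over 3 root and 3 leaf arrays; the grey band spans the 5th to 95th percentile of all probe sets. GH9C2, at -1.52 log2, has the only point far outside the band, and the intervals of GH9C2, GH9B16 and XTH21 lie wholly below 0.

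The endoglucanases held the member with the lowest root minus leaf difference. GH9C2 (Entrez gene 842747) stood at -0.66, -0.58 and -1.13 log2 in root replicates 1 to 3, against 0.92, 0.58 and 0.69 log2 in leaf replicates 1 to 3. The tissues were well apart, and every root array lay below every leaf array by more than the spread within either tissue. The difference was -1.52 ± 0.23 log2 (SE, n = 3 arrays per tissue; 95% interval -2.05 to -0.99), with an unadjusted p of 0.000184 and an adjusted p of 0.0533 in limma. It was -1.58, -1.16 and -1.83 log2 in the 3 pairs of arrays with the same replicate number. The call turned on the setting. The adjusted p was 0.0483 with each array centred on its median, 0.0433 with array weights and 0.00609 with trend and robust options of eBayes. It was 0.0686 with a block for the replicate number and 0.112 to 0.195 with 1 array left out, and it ranged from 0.00609 to 0.418 over all alternatives. The size of the difference moved less, between -1.63 and -1.35 log2, with 1 array left out.

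The other class C genes lay on the opposite side of 0. GH9C1, which in Arabidopsis is active in root hairs, had the highest difference of the 13 endoglucanases. It stood at -0.020, 0.82 and 0.020 log2 in the root arrays and 0.26, -0.26 and -0.49 log2 in the leaf arrays. Root replicate 2 alone was above every leaf array, the tissues overlapped, and the difference was 0.44 ± 0.31 log2 (adjusted p = 0.749), and 0.16 log2 without root replicate 2. GH9C3 differed by 0.16 ± 0.22 log2 (adjusted p = 0.895).

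Among the 8 class B genes the median difference was -0.032 log2. GH9B16 (Entrez gene 830054) stood at -0.21, -0.18 and -0.23 log2 in the root arrays, against 0.63, 0.18 and 0.21 log2 in the leaf arrays. Its root arrays were nearly identical, all leaf arrays were higher, and leaf replicate 1 was the highest. The difference was -0.55 ± 0.21 log2 (95% interval -1.03 to -0.070) with an unadjusted p of 0.0296 and an adjusted p of 0.446. GH9B17 and GH9B18, which follow GH9B16 in the gene numbering, differed by -0.076 ± 0.27 and 0.20 ± 0.22 log2. GH9B12 differed by -0.49 ± 0.34 log2 (adjusted p = 0.748), with root below leaf in all 3 pairs. Leaving out leaf replicate 2 gave -0.21 log2, and leaving out root replicate 3 gave -0.26 log2. GH9B6, GH9B7, GH9B8 and GH9B13 lay between -0.16 and 0.11 log2. In class A, GH9A3 and GH9A4 differed by -0.11 ± 0.22 and -0.086 ± 0.25 log2. Over all 13 endoglucanases the median was -0.076 log2, with 6 higher and 7 lower in root by their means.

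The XTH family held both the highest difference of all members and a member without overlap in the other direction. XTH18 (Entrez gene 829151), one of a group of XTH genes known from the Arabidopsis root, stood at -0.050, 0.050 and 0.35 log2 in the root arrays, against -1.67, 0.21 and -1.08 log2 in the leaf arrays. The root arrays lay close together, while leaf replicates 1 and 3 were far below them and leaf replicate 2 was not. The difference was 0.96 ± 0.44 log2 (95% interval -0.067 to 1.99; adjusted p = 0.571), and leaving out leaf replicate 2 gave 1.49 log2, leaf replicate 1 instead 0.55 log2. XTH19 and XTH20, of the same Arabidopsis root group, differed by -0.27 ± 0.27 and -0.12 ± 0.27 log2; the 95% intervals of all 3 held 0.

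XTH21 (Entrez gene 816395), which in Arabidopsis takes part in the growth of the primary root, was lower in root here. It stood at -0.26, -0.14 and -0.53 log2 in the root arrays, against 0.52, 0.27 and 0.14 log2 in the leaf arrays. All root arrays were below all leaf arrays, although root replicate 2 and leaf replicate 3 were close. The difference was -0.62 ± 0.21 log2 (95% interval -1.11 to -0.13), with an unadjusted p of 0.0195 and an adjusted p of 0.401. XTH29 and XTH33 both differed by 0.37 log2, with standard errors of 0.33 and 0.24 log2. In XTH29 that value came from root replicate 1, at 0.93 log2, and was 0.051 log2 without it. XTH16 differed by -0.072 ± 0.67 log2, the widest error of all members. The family median was -0.072 log2, with 3 genes higher and 4 lower in root by their means.

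**Figure D2:**
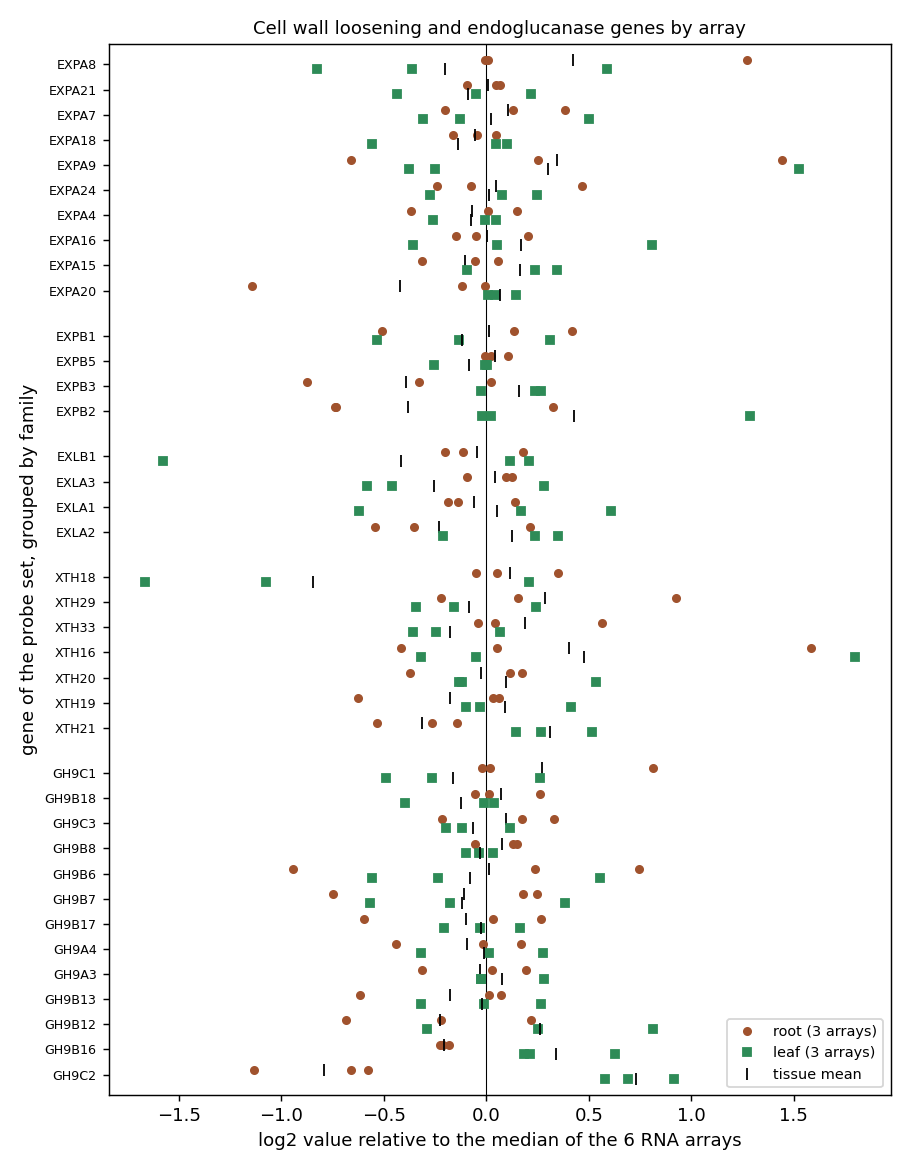
Value of each of the 38 genes on each of the 6 RNA arrays, in log2 relative to the gene's median over these arrays (horizontal axis), with root arrays as circles above leaf arrays as squares and tissue means as black ticks. In GH9C2, GH9B16, XTH21 and EXPA20 all 3 root arrays lie left of all 3 leaf arrays, and in the other 34 genes the tissues overlap.

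Among the 10 alpha-expansins, 7 had the higher mean in root and 3 in leaf. Their median difference was 0.038 log2, and 0 were called in limma (0 also at an unadjusted p under 0.05). EXPA8 had the highest difference of this family. It stood at -0.0078, 1.27 and 0.0078 log2 in the root arrays, against -0.83, 0.59 and -0.36 log2 in the leaf arrays. Replicate 2 was the highest array in both tissues. Root was above leaf in all 3 pairs, while the tissues overlapped. The difference was 0.62 ± 0.46 log2 (adjusted p = 0.761), and it was 0.20 log2 without root replicate 2 and 1.02 log2 without leaf replicate 2. With a block for the replicate number the error was 0.21 log2 and the adjusted p 0.307.

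EXPA20 had the lowest difference of the alpha-expansins. It stood at -0.0062, -1.14 and -0.12 log2 in the root arrays, against 0.041, 0.0062 and 0.15 log2 in the leaf arrays. The absence of overlap rested on a very small gap between root replicate 1 and leaf replicate 2, and the size rested on root replicate 2. The difference was -0.49 ± 0.32 log2 (adjusted p = 0.720) and -0.13 log2 without that array. The root hair expansins of Arabidopsis, EXPA7 and EXPA18, had 95% intervals of -0.56 to 0.73 and -0.47 to 0.64 log2, which hold both a root and a leaf excess. In EXPA7 replicate 3 was the highest array in both tissues, at 0.38 log2 in root and 0.50 log2 in leaf. In EXPA18 leaf replicate 1 was the lowest array, at -0.56 log2, and the other 5 lay between -0.16 and 0.10 log2. EXPA15 and EXPA16 differed by -0.27 ± 0.22 and -0.17 ± 0.31 log2. EXPA4, EXPA9, EXPA21 and EXPA24 lay between 0.0052 and 0.095 log2.

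The 4 beta-expansins had a median of -0.21 log2, with 2 higher and 2 lower in root by their means. EXPB2 stood at -0.74, -0.73 and 0.33 log2 in the root arrays, against 0.021, -0.021 and 1.28 log2 in the leaf arrays. Replicate 3 was high in both tissues, and root lay below leaf by 0.71 to 0.96 log2 in every pair. The difference was -0.81 ± 0.44 log2 (adjusted p = 0.635), and -0.38 log2 without leaf replicate 3. With the block its error was 0.20 log2, its unadjusted p 0.00552 and its adjusted p 0.189. EXPB3, at -0.33, 0.024 and -0.87 log2 in the root arrays and 0.27, 0.24 and -0.024 log2 in the leaf arrays, was also below leaf in every pair. Its difference was -0.55 ± 0.27 log2 (adjusted p = 0.591), and -0.31 log2 without root replicate 3. EXPB1 stood at 0.13, -0.51 and 0.42 log2 in the root arrays and -0.53, -0.13 and 0.31 log2 in the leaf arrays. Its arrays were mixed between the tissues and the difference was 0.13 ± 0.32 log2 (adjusted p = 0.948). EXPB5 differed by 0.13 ± 0.19 log2.

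The 4 expansin-like genes, whose proteins resemble expansins but whose wall loosening activity is not established, had a median of 0.090 log2. EXLB1 stood at -0.20, -0.11 and 0.18 log2 in the root arrays, against -1.58, 0.11 and 0.21 log2 in the leaf arrays. Leaf replicate 1 was far below the other 5 arrays, which overlapped. The difference was 0.37 ± 0.46 log2 (adjusted p = 0.873), and it was -0.21 log2 without leaf replicate 1. EXLA2 stood at 0.21, -0.54 and -0.36 log2 in the root arrays and -0.21, 0.24 and 0.35 log2 in the leaf arrays. Pair 1 ran opposite to pairs 2 and 3, and the difference was -0.35 ± 0.27 log2 (adjusted p = 0.769). EXLA1 and EXLA3 differed by -0.11 ± 0.32 and 0.29 ± 0.27 log2. In EXLA1, EXLA3 and EXLB1 leaf replicate 1 was the lowest of the 6 arrays. Without leaf replicate 1 the median of the 4 was -0.33 log2.

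In EXPA9 and XTH16 the arrays differed by replicate number far more than by tissue. EXPA9 stood at -0.66, 1.44 and 0.25 log2 in the root arrays and -0.38, 1.53 and -0.25 log2 in the leaf arrays. XTH16 stood at -0.42, 1.58 and 0.051 log2 in the root arrays and -0.051, 1.80 and -0.32 log2 in the leaf arrays. In both genes replicate 2 was the highest array of each tissue by over 1 log2; EXPA9 and XTH16 are shown in full because this was seen in their values. The span between replicate numbers, averaged over root and leaf after removing the tissue means, was 2.0 log2 in EXPA9 and 1.93 log2 in XTH16. Of all probe sets, 99.3% and 99.2% had a smaller span. The next spans were 1.35 log2 in EXPA8, 1.18 log2 in EXPB2, 1.14 log2 in GH9B6 and 1.09 log2 in EXLB1. In EXLB1 the span came mostly from leaf replicate 1, at -1.58 log2, against -0.20 log2 in root replicate 1. GH9C2, XTH21 and GH9B16 had spans of 0.35, 0.32 and 0.22 log2. The labels do not say what a replicate number marks.

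**Figure D3:**
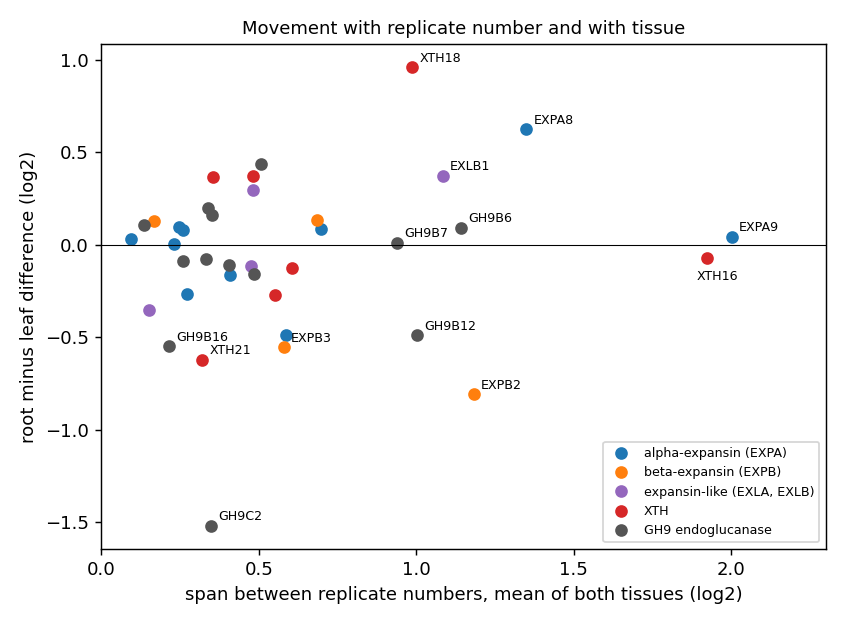
Root minus leaf difference (vertical axis, log2) of the 38 genes against the span between replicate numbers averaged over both tissues (horizontal axis, log2), coloured by family. EXPA9 and XTH16 lie far right near a difference of 0, whereas GH9C2 lies at a span of 0.35 log2 and a difference of -1.52 log2.

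Among the few members picked out by pairing same-numbered arrays, more were lower in root, a split that was not tested. Over all 38 members pairing leaves the means unchanged, with 20 higher and 18 lower in root. With a block for the replicate number, limma called 0 members, against 0.330% of all probe sets, and 8 members (21.1%) had an unadjusted p under 0.05, against 12.3% of all probe sets. GH9C2, GH9B16, GH9B12, XTH21, EXPB2 and EXPB3 were lower in root (15.8%, against 6.02% of all probe sets), and EXPA8 and XTH18 were higher (5.26%, against 6.29%). Their block errors ranged from 0.20 to 0.37 log2. The block leaves fewer residual degrees of freedom than the main fit, so each gene's own spread is less well known. Root lay below leaf in all 3 pairs in 7 members (18.4%), which were the same 6 and EXPA20, against 14.8% of all probe sets. Root lay above leaf in all 3 pairs in 1 member, EXPA8, against 19.5% of all probe sets.

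**Figure D4:**
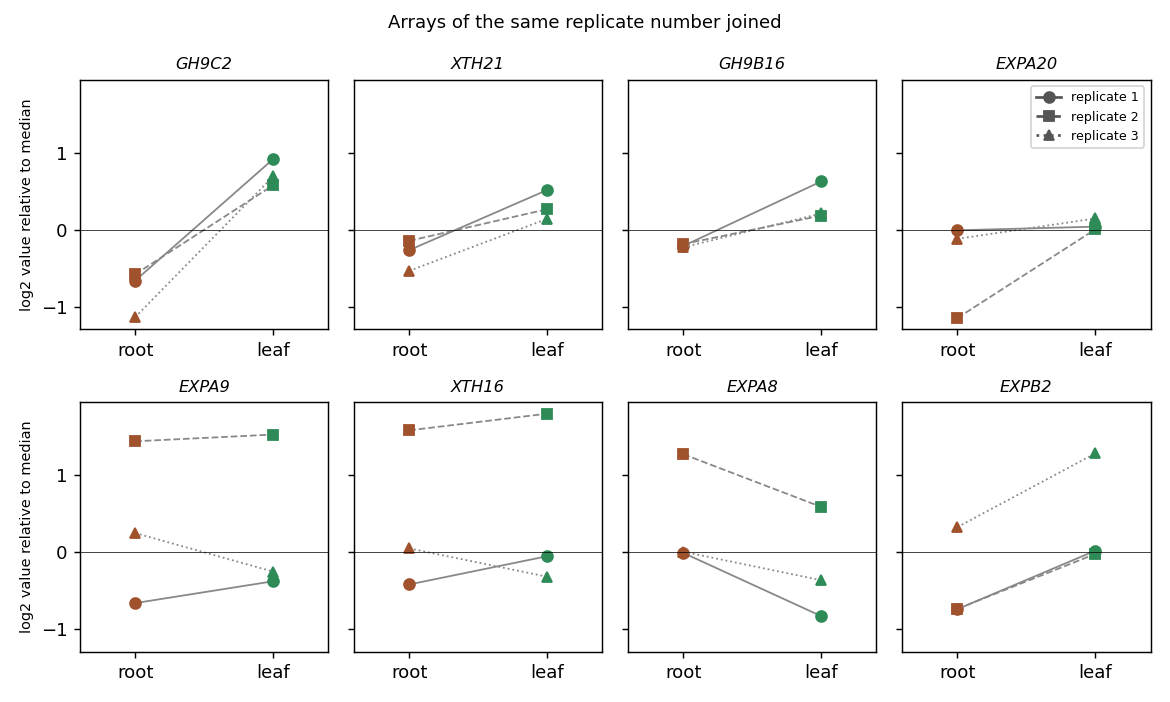
Values of 8 genes in log2 relative to the median of the 6 RNA arrays (vertical axis), with root left of leaf and lines joining arrays of the same replicate number. In the upper row (GH9C2, XTH21, GH9B16, EXPA20) every line runs up toward leaf. In the lower row the line of replicate 2 lies above the others in EXPA9, XTH16 and EXPA8, and that of replicate 3 does in EXPB2.

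Few other genes of wall growth were matched, because only single-gene probe sets with a listed symbol were counted. The counts do not show that the remaining genes are absent from the array. Of 19 genes of cellulose synthesis and assembly 1 was matched, COB, which guides oriented cell expansion in Arabidopsis (-0.19 ± 0.22 log2, adjusted p = 0.857). Of 22 genes of xyloglucan synthesis and trimming 3 were matched, all encoding glucan backbone synthases, with a median of 0.23 log2. CSLC6 was the highest, at 0.067, 0.15 and 0.28 log2 in the root arrays and -0.31, -0.067 and -0.48 log2 in the leaf arrays. Its tissues did not overlap and its difference was 0.45 ± 0.20 log2 (adjusted p = 0.559). CSLC12 was the lowest, at 0.029 ± 0.30 log2. Plasma membrane proton pumps, which acidify the wall, and SAUR growth regulators had 0 genes matched by name.

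The receptors and peptides that report on wall state had 12 measured genes, with a median of 0.29 log2 and 9 higher and 3 lower in root by their means. Over all probe sets 54.5% had the higher mean in root. In limma 0 of the 12 were called, and 1, FER, had an unadjusted p under 0.05, a share near the 9.56% of all probe sets. With the replicate block 2 did, both higher in root, against 12.3% of all probe sets in either direction. Root and leaf arrays did not overlap in 3 of the 12 higher in root and 1 higher in leaf, against 15.1% of all probe sets. That larger share rests on few genes and was not tested. FER encodes FERONIA, a receptor kinase that binds RALF peptides and, in Arabidopsis, acts in cell expansion and root hair growth. It stood at 0.44, 0.20 and 0.36 log2 in the root arrays, against -1.86, -1.09 and -0.20 log2 in the leaf arrays. All root arrays were above all leaf arrays, and the leaf arrays were spread widely. The difference was 1.38 ± 0.39 log2 (95% interval 0.47 to 2.29), with an unadjusted p of 0.00806 and an adjusted p of 0.288. RALFL18, a member of the RALF peptide family, was the lowest of the 12, at -0.37 ± 0.21 log2 (adjusted p = 0.672).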

How the data were processed

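Total RNA from root and leaf was labelled with a 3' kit, from 250 ng for each array, and hybridised to ATH1 arrays, per the labels' protocols. The deposited log2 values were made with RMA, per the submitters' processing notes; the version, the log base and any filter on probe sets are not given in the sources used here, and log2 is RMA's usual output. Every one of the 18874 listed probe sets had been centred, with its 6 RNA values at a median of 0 (tolerance 1e-06). Genes were named from the platform's probe annotation.

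After removal of 64 control probe sets, limma 3.58.1 in R 4.3.3 estimated root minus leaf by lmFit and eBayes over 18810 probe sets, with no covariate, 4 residual and 3.80 prior degrees of freedom, and Benjamini-Hochberg adjustment over all of them. Python 3.11.15, pandas 2.3.3 and NumPy 2.4.6 gave summaries, and matplotlib 3.10.9 the figures. The fit was tested on simulated data. The members and lists were chosen with earlier results of these data known, so no list was tested as a set. All 6 values are given for members with an unadjusted p under 0.05 or no overlap, and for the highest and lowest member of each family. EXPA9, XTH16 and EXPB3 are also given in full, outside this rule. In each further list the highest and lowest gene is named.

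Deviations from the tissue means correlated by 0.12, 0.37 and 0.25 between root and leaf arrays numbered 1, 2 and 3, and by -0.29 to 0.064 otherwise. All 3 exceeded 0.1, so the numbers were taken to pair the arrays, an assumption. Alternatives were the replicate block, quantile normalization, array centring, array weights, a variance trend with robust fitting, other probe set filters, a 2-fold minimum and left-out arrays.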

Additional observations from a re-analysis of the deposited data

How the results depend on the processing

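GH9C2, XTH21, GH9B16, EXPA20, EXPA8, EXPB2, EXPB3, XTH18 and FER kept their direction in all 17 alternatives; 19 of the 38 members changed sign in at least 1, none of them with a difference over 0.37 log2. The count of members called lower in root, 0, was 1 (GH9C2) with array median centring, array weights or trend and robust fitting, and 0 with arrays left out. With the replicate block, the counts at an unadjusted p under 0.05 were 2 higher and 6 lower in root, against 0 and 3; with the 2-fold minimum 1 was lower. With arrays left out, singly or, chosen after seeing the data, as a same-numbered pair, these counts were 0 to 1 and 1 to 3. The block changed the call of no member and ended that of psbB (adjusted p = 0.0508). The member median of 0.0084 log2 was -0.059 with array weights, -0.067 after quantile normalization and -0.11 to 0.026 with arrays left out. Family medians ranged with arrays left out from -0.15 to 0.10 log2 for EXPA, -0.34 to -0.10 for EXPB, -0.34 to 0.36 for the expansin-like genes, -0.22 to 0.33 for XTH and -0.22 to 0.043 for GH9. Sign changes with all 6 arrays were EXPA9 (-0.25 log2 with array weights, -0.075 after quantile normalization), EXPA4 (-0.012 with centring), GH9B7 (-0.0058 with centring, -0.15 with weights, -0.059 after quantile normalization) and CSLC12 (-0.10 with weights, -0.026 after quantile normalization). Those with arrays left out spanned, in log2, -0.11 to 0.30 for EXPA21, -0.082 to 0.32 for EXPA7, -0.18 to 0.26 for EXPA18, -0.51 to 0.66 for EXPA9, -0.32 to 0.29 for EXPA24, -0.13 to 0.21 for EXPA4 and -0.53 to 0.23 for EXPA16. The spans were -0.14 to 0.39 for EXPB1, -0.21 to 0.69 for EXLB1, -0.55 to 0.20 for EXLA1, -0.077 to 0.63 for XTH29, -0.66 to 0.59 for XTH16 and -0.30 to 0.097 for XTH20. They were -0.35 to 0.57 for GH9B6, -0.21 to 0.33 for GH9B7, -0.26 to 0.27 for GH9B17, -0.28 to 0.23 for GH9A4, -0.22 to 0.035 for GH9A3, -0.40 to 0.067 for GH9B13, -0.073 to 0.28 for AT1G22690 and -0.24 to 0.41 for CSLC12. The cause of these changes was not tested. Without signal levels no filter on dim probe sets could be applied, and the trend fit rests on centred values. The 2-fold minimum gives no value for a difference or median.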
